A study of Mus musculus with 3 samples.

Results

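*Sfrp1*, *Sfrp2*, *Wif1*, *Frzb* and *Dkk2* are the 5 secreted Wnt antagonists described here, taken by name from the 9781 gene rows used of a single cell expression table of the developing mouse prostate. The rule that chose them is a list of names and used no threshold on expression, but the names were picked with earlier results of these data known. The study profiled the male urogenital sinus (UGS), the embryonic tissue that gives rise to the prostate, at E18.5 (a stage in embryonic days), and the prostate on postnatal days 14 and 35, with 1 droplet library for each age, to follow cells that express the transcription factor *Osr1* and their descendants. All 3 tissues carried the label of normal tissue, and the labels gave no genotype, no number of animals and, for the prostates, no sex. The methods describe R26 mTmG/+:Osr1 Cre/+ reporter mice on a mixed C57BL/6 and 129S1/SvImJ background, in which *Osr1*-driven Cre switches on membrane GFP.

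Wnt proteins are secreted signals that bind Frizzled receptors with LRP5 or LRP6 as co-receptor and, in the canonical branch, stabilise β-catenin. *Sfrp1*, *Sfrp2* and *Frzb* encode secreted Frizzled-related proteins, which carry a Frizzled-like domain and bind Wnt ligands outside the cell. *Wif1* encodes Wnt inhibitory factor, another protein that binds the ligand, whereas *Dkk2* encodes a Dickkopf protein that binds the LRP co-receptor and can block or, in some settings, aid signalling. In the UGS and prostate, signals exchanged between mesenchyme and epithelium, Wnts among them, shape budding and branching of the glands.

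On the mouse assembly GRCm38.p6, the *Sfrp1* gene lies at chr8:23411383-23449632, *Sfrp2* at chr3:83765750-83774314, *Wif1* at chr10:121034004-121100642, *Frzb* at chr2:80411970-80447396 and *Dkk2* at chr3:132085266-132180304. RefSeq promoters, from 250 bases before to 50 bases after a transcript start site, were matched for 4 of the 5 genes, all but *Sfrp1*. That start site is the first base of the gene span given above for *Wif1* and, on the minus strand, its last base for *Frzb*, whereas it lies 571 bases inside the span for *Sfrp2* and 26 bases inside for *Dkk2*. Those of *Sfrp2*, *Wif1* and *Dkk2* are printed because the levels of these genes differed in different ways between fibroblast-like, smooth muscle-like and epithelial cells. Capitals mark, on either strand, the GC box GGGCGG, the TATA letters TATAAA and the TCF/LEF letters ATCAAAG or TTCAAAG, none of which overlapped in these windows.
Sfrp2, chr3:83766071-83766370, plus strand: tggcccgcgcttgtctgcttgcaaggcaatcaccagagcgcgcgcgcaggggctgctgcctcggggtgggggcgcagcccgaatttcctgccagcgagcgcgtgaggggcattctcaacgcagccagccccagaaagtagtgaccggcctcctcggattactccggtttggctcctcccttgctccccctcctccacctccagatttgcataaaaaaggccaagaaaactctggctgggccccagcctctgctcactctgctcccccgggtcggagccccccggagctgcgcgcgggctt
Wif1, chr10:121033754-121034053, plus strand: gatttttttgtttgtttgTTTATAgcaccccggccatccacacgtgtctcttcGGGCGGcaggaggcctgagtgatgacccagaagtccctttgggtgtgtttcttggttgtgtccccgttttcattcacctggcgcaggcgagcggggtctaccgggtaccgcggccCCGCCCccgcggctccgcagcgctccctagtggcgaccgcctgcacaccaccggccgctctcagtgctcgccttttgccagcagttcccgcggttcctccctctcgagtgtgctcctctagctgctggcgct
Dkk2, chr3:132085042-132085341, plus strand: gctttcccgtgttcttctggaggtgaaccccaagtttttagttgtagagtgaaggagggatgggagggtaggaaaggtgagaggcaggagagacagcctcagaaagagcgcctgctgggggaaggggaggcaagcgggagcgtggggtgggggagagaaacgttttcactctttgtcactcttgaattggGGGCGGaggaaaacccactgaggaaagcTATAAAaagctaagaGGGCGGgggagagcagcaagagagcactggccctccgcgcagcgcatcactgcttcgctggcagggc
The *Dkk2* window held TATAAA starting 32 bases before its start site and 2 GC boxes, and the *Wif1* window held 2 GC boxes, 1 on each strand, and TATAAA on the other strand 232 bases before the start site. The *Frzb* window held 1 GC box, and the *Sfrp2* window matched none of the letters searched. No window of the 4 genes held either TCF/LEF form. Among all 32851 promoters of the same length, 35.7% held the GC box, 13.6% held TATAAA and 8.65% held a TCF/LEF form.

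The cells fell into 3 sets by the ending of their barcodes, with 766, 5350 and 8457 cells and a median of 19357, 1738 and 1788 transcript counts per cell. Transcripts were counted by unique molecular identifiers (UMIs), which count each captured molecule once, and levels are given as UMIs per 1000000 UMIs of the same cells (CPM). No label ties an ending to an age. The study gives a cell number for each age. The number of cells in set 1 equals the one for the embryonic tissue, whereas those for both postnatal ages match neither other set. Ages were not assigned from this match, so the sets are named 1, 2 and 3, nothing is compared between ages, and each value is 1 library with no replicate. Barcodes that also occurred in another set numbered 1, 14 and 13. With 1 library per set, intervals cover counting error only, no test across samples was possible and no p-value is given. Set 1 alone held UMIs of the reporter row EGFP, in 393 of its 766 cells.

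Clusters made without the 5 genes, without the other genes of the Wnt list and without EGFP were named from marker lists. The fibroblast-like class held 352, 1569 and 2574 cells of sets 1, 2 and 3, the epithelium-like class 142, 1298 and 2627, the smooth muscle-like class 24, 1178 and 1724 and the glia-like class 21, 187 and 241. The epithelium-like class combined basal-like, luminal-like and urothelium-like cells. Of 15 clusters, 2 stayed unnamed: cluster 5 carried fibroblast and smooth muscle markers and cluster 7 epithelial and smooth muscle markers, both with genes of mitosis. The 15 fibroblast markers with a row summed to 18338, 19261 and 20276 CPM in fibroblast-like cells and to 83.1, 1320 and 781 in epithelium-like cells. Leukocyte-like cells, which should lack the antagonists, served as the background and numbered 38, 26 and 177.

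The antagonists differed in how their levels were spread over the cell classes. *Sfrp1* was highest in glia-like and then in fibroblast-like cells. *Sfrp2* was shared by fibroblast-like and smooth muscle-like cells, and *Dkk2* was higher in fibroblast-like than in epithelium-like cells of each set. *Wif1* was higher in 1 of the fibroblast-like clusters than in the others. It was also higher in basal-like than in luminal-like epithelium, from 3 basal-like cells in set 1. In sets 2 and 3 the basal-like *Wif1* level was not resolved from the leukocyte-like background. Basal-like cells of set 1 also held *Sfrp1* and *Sfrp2*, at 43.2 and 47.5 CPM. *Frzb* was found almost only in set 1.

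**Figure D1:**
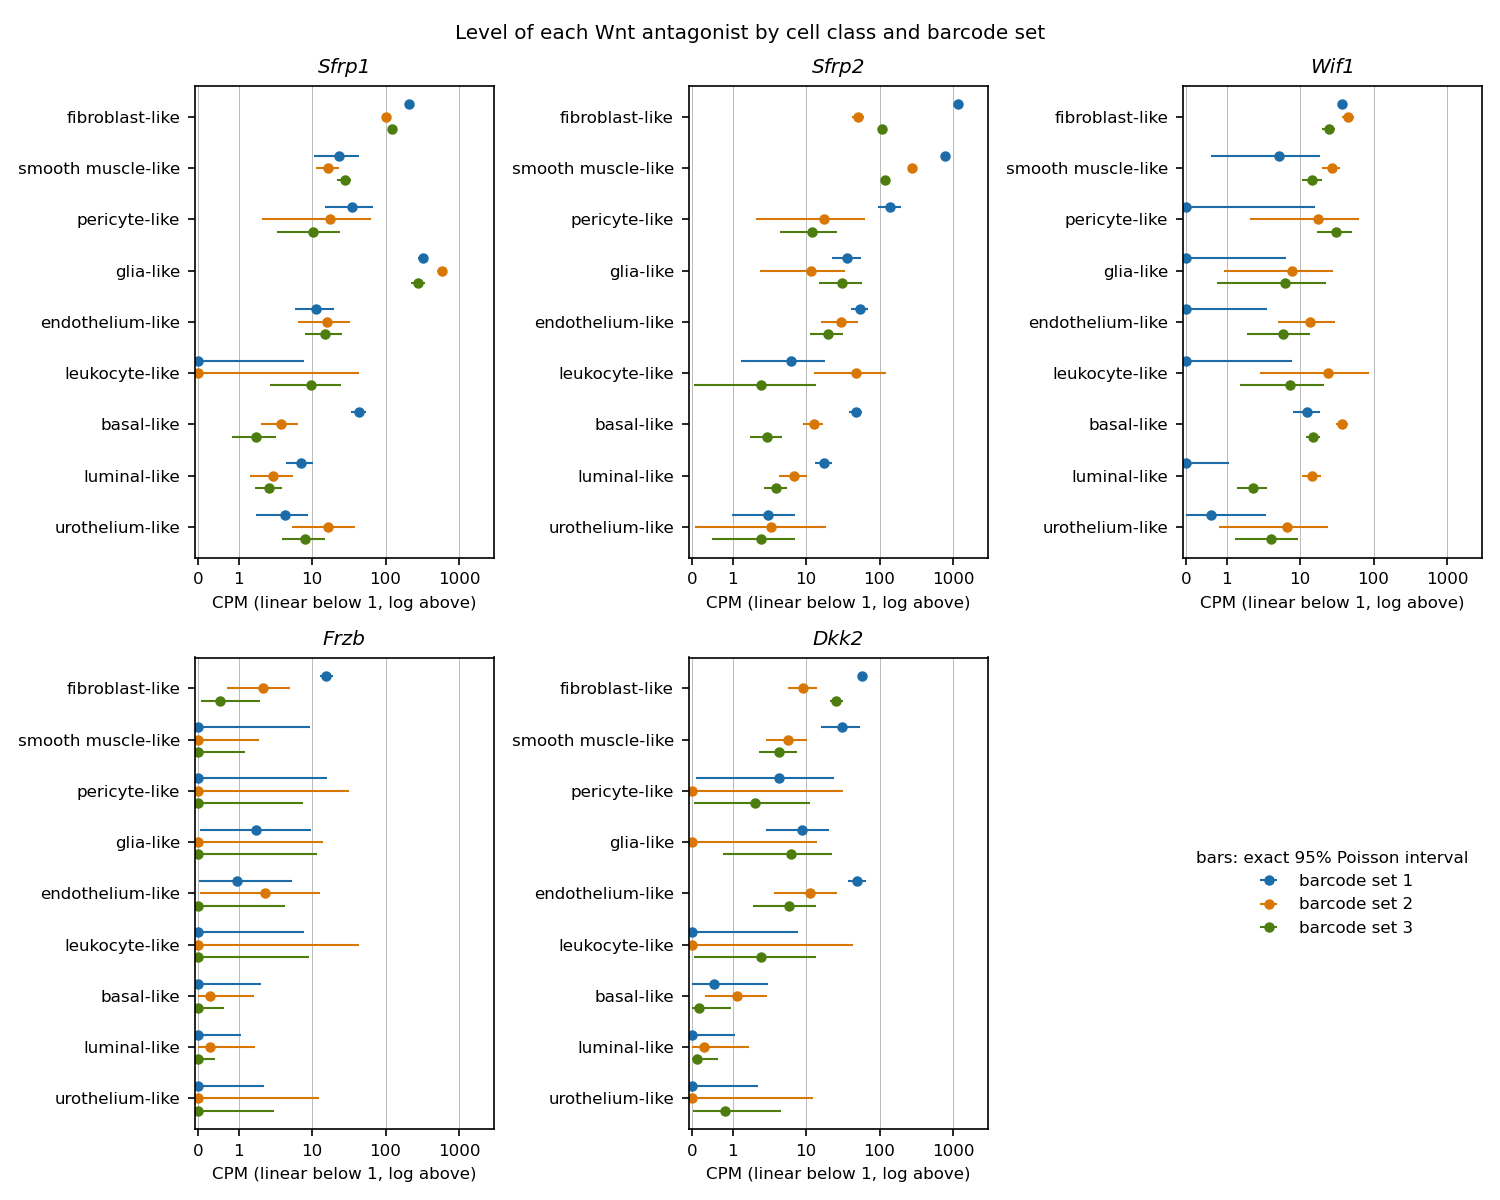
Level of each antagonist in CPM (x axis, linear below 1 and logarithmic above) in 9 cell classes (y axis), with 1 point for each of the 3 barcode sets and bars for the exact 95% Poisson interval. *Sfrp1* was highest in glia-like cells of every set, at 278 to 590 CPM, whereas *Dkk2* stayed under 2 in basal-like and luminal-like cells.

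*Sfrp1* levels, like all levels below, are in CPM with exact 95% Poisson intervals. In fibroblast-like cells they were 206 (195 to 218) in set 1, 102 (89.6 to 116) in set 2 and 122 (111 to 134) in set 3. In epithelium-like cells they were 15.9 (13.1 to 19.2), 3.92 (2.60 to 5.66) and 2.73 (1.98 to 3.68), so that no interval of the epithelium reached one of the fibroblast-like cells in the same set. The fibroblast-like level was 12.9-fold, 26.1-fold and 44.8-fold higher, or 3.69 (3.41 to 3.99), 4.71 (4.14 to 5.33) and 5.49 (5.03 to 5.97) on the log2 scale. Over the alternatives, which were other ways of building the classes and thinning of the cells, these log2 ratios ran from 3.25 to 4.54, from 3.95 to 5.27 and from 4.93 to 5.71.

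Smooth muscle-like cells held *Sfrp1* at 23.1 (10.6 to 43.9), 16.6 (11.4 to 23.5) and 27.7 (22.0 to 34.3) CPM. The fibroblast-like level was higher by 3.16 (2.23 to 4.29), 2.62 (2.08 to 3.202) and 2.14 (1.80 to 2.50) on the log2 scale. The first of these rests on 9 UMIs in 24 cells. With the cells thinned to 900 UMIs the ratio of set 1 was 0.35, as 0 of 23 smooth muscle-like cells then held a UMI and the ratio is only a lower bound. The ratio of set 2 fell under 4-fold with at least 500 genes per cell (1.66), without integration of the sets (1.76) and without the highest doublet scores (1.85), and that of set 3 without cluster 6 (1.73), thinned (1.83), without integration (1.85) and with cluster 5 counted as fibroblast-like (1.99). Pericyte-like cells held 34.7 (14.985 to 68.4), 17.3 (2.10 to 62.6) and 10.2 (3.30 to 23.7) CPM and endothelium-like cells 11.4 (5.89 to 19.9), 15.9 (6.40 to 32.8) and 15.03 (8.004 to 25.7), with intervals that overlap those of smooth muscle-like cells in each set, although both values of set 3 lie below the smooth muscle-like interval.

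Glia-like cells, the supporting cells of peripheral nerves, gave the highest *Sfrp1* level of any named class in each set. The values were 324 (279 to 374), 590 (501 to 691) and 278 (223 to 342) CPM, above fibroblast-like cells by 0.65 (0.42 to 0.88), 2.53 (2.23 to 2.83) and 1.19 (0.84 to 1.52) on the log2 scale. Only the set 2 difference passed 4-fold, and 3.58%, 3.85% and 5.10% of rows did so in that direction in sets 1, 2 and 3. The other antagonists were at least 4-fold lower in glia-like cells in set 1, where 5.53% of rows were, *Sfrp2* and *Wif1* were so in set 2 (4.35% of rows) and *Dkk2* in set 3 (4.26%). These calls rest on few glia-like UMIs. In set 1 they were 21 of *Sfrp2*, 0 of *Wif1*, 1 of *Frzb* and 5 of *Dkk2*, so the *Wif1* ratio is a bound. In set 2 they were 3 of *Sfrp2* and 2 of *Wif1*, and in set 3 they were 2 of *Dkk2*. At 900 UMIs per cell, 28.6%, 40.6% and 15.8% of glia-like cells held an *Sfrp1* UMI, against 14.6%, 9.85% and 8.66% of fibroblast-like cells. Fibroblast markers summed in glia-like cells to 1930, 6184 and 5274 CPM, which is 9.50-fold, 3.11-fold and 3.84-fold below fibroblast-like cells. The part of fibroblast transcripts in the glia-like *Sfrp1* counts was not tested. Glia-like cells numbered 21 in set 1, and 64 and 127 of those in sets 2 and 3 were too shallow to be thinned.

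In the leukocyte-like background *Sfrp1* had 0 UMIs in sets 1 and 2, which allow up to 6.26 and 35.7 CPM at the floor of 3 UMIs used for every count of 0, and 4 UMIs in set 3, or 9.75 (2.66 to 25.0) CPM. The fibroblast-like level exceeded this background by at least 5.04 on the log2 scale in set 1, by at least 1.52 in set 2 and by 3.65 (2.28 to 5.53) in set 3. The epithelial values of sets 2 and 3 lay under these limits and are not told apart from background here. Basal-like cells of set 1 held 43.2 (34.2 to 53.8) CPM against 6.99 (4.48 to 10.4) in luminal-like cells, a log2 difference of 2.63 (1.95 to 3.35). In sets 2 and 3 the same difference was 0.33 (-0.97 to 1.68) and -0.59 (-1.83 to 0.53).

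*Sfrp2* was by number of UMIs the most frequent of the 5 genes in the table, with 10409, 1278 and 1066 UMIs in sets 1, 2 and 3. In fibroblast-like cells it stood at 1162 (1136 to 1189) CPM in set 1, at 50.7 (41.9 to 60.8) in set 2 and at 107 (97.1 to 119) in set 3. Smooth muscle-like cells held 775 (690 to 868), 279 (256 to 304) and 120 (108 to 133). Which of the classes was higher thus depended on the set. Fibroblast-like over smooth muscle-like cells gave log2 ratios of 0.58 (0.42 to 0.76) in set 1, -2.46 (-2.76 to -2.17) in set 2 and -0.16 (-0.37 to 0.05) in set 3. The set 2 value, a 5.50-fold difference in favour of smooth muscle-like cells, passed 4-fold, as did 3.26% of the rows in that direction (1.75% and 3.41% in sets 1 and 3, with no antagonist among them). Without cluster 6, which held 220 of the 352 fibroblast-like cells of set 1, the set 1 ratio was -0.08. Without integration of the sets it was 2.29, past 4-fold in favour of fibroblast-like cells. The set 2 ratio fell under 4-fold with cluster 5 counted as fibroblast-like (-1.24), with cells classed 1 by 1 (-1.51) and with at least 500 genes per cell (-1.62), and kept its sign under each alternative tried.

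Epithelium-like cells held *Sfrp2* at 22.0 (18.7 to 25.8), 9.51 (7.38 to 12.1) and 3.43 (2.58 to 4.47) CPM. Both stromal classes lay above them in every set. The fibroblast-like ratio was 5.72 (5.49 to 5.96), 2.41 (1.97 to 2.87) and 4.97 (4.56 to 5.41) on the log2 scale, and the smooth muscle-like ratio was 5.14 (4.85 to 5.43), 4.87 (4.51 to 5.26) and 5.13 (4.71 to 5.57). The fibroblast-like ratio of set 2 moved most with the way the classes were built, from 1.07 with cluster 7 counted as epithelium-like to 3.64 with cluster 5 counted as fibroblast-like, and was also under 4-fold without the highest doublet scores (1.49) and with at least 500 genes per cell (1.64). Within the epithelium, basal-like cells held *Sfrp2* at 47.5 (38.1 to 58.6), 12.6 (9.18 to 17.0) and 2.96 (1.72 to 4.73) CPM. Luminal-like cells held 17.5 (13.3 to 22.5), 6.83 (4.33 to 10.2) and 3.88 (2.69 to 5.42), with intervals that overlap those of basal-like cells in sets 2 and 3.

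The background of *Sfrp2* was uneven. Leukocyte-like cells held 6.26 (1.29 to 18.3), 47.5 (13.0 to 122) and 2.44 (0.0617 to 13.6) CPM, from 3, 4 and 1 UMIs. The fibroblast-like level of set 2 exceeded the background by 0.09 (-1.30 to 1.99) on the log2 scale and could not be told apart from it, whereas those of sets 1 and 3 exceeded it by 7.54 (5.99 to 9.82) and 5.46 (2.97 to 10.8). The leukocyte-like cells of set 2 also summed to 6418 CPM over the 8 smooth muscle markers, against 89.7 and 585 in sets 1 and 3. The part of these transcripts in the *Sfrp2* counts of set 2 was not tested.

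*Sfrp2* was also the member found in the largest share of fibroblast-like cells of set 1. There 94.0% of them held at least 1 UMI, with up to 141 UMIs in a cell, and 54.0% (48.6% to 59.3%) did so at 900 UMIs per cell. In sets 2 and 3 the thinned shares were 4.67% (3.62% to 5.93%) and 8.34% (7.22% to 9.58%), and smooth muscle-like cells gave 17.8% (15.6% to 20.2%) and 10.3% (8.88% to 11.9%). Leukocyte-like cells gave 0%, 8.33% and 0% at the same depth, from 38, 24 and 167 cells.

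*Dkk2* transcripts were few, and fibroblast-like cells held 65.8%, 36.2% and 68.8% of them in sets 1, 2 and 3. Their level was 58.0 (52.2 to 64.2), 9.10 (5.63 to 13.9) and 25.8 (20.9 to 31.6) CPM, from 374, 21 and 95 UMIs. Epithelium-like cells held 1, 5 and 3 UMIs in all, or 0.145, 0.699 and 0.190 CPM. On the log2 scale the fibroblast-like level was higher by 8.65 (6.16 to 13.9) in set 1, 3.70 (2.26 to 5.47) in set 2 and 7.08 (5.49 to 9.39) in set 3, with wide intervals at these few epithelial UMIs. The size of these ratios depended on how the classes were built. That of set 1 was 4.28 with at least 500 genes per cell, 4.42 with cluster 7 counted as epithelium-like, 5.70 without integration and 5.76 with cells classed 1 by 1, and that of set 3 was 4.80 and 5.01 under the first 2 of these. Smooth muscle-like cells held 30.8 (15.9 to 53.8), 5.71 (2.85 to 10.2) and 4.33 (2.31 to 7.41) CPM. The value of set 1 came from 12 UMIs in 2 of 24 cells, 1 of which held 10. Smooth muscle-like cells lay below fibroblast-like cells by 2.58 (1.73 to 3.54) on the log2 scale in set 3, but in set 2 the difference was 0.67 (-0.45 to 1.87) and not resolved. In set 1 the 2 intervals overlap, and the log2 ratio ran from 0.08 to 0.91 over the ways tried.

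Endothelium-like cells of set 1 held *Dkk2* at 49.4 (36.9 to 64.8) CPM, 0.23 (-0.19 to 0.68) on the log2 scale below fibroblast-like cells. These 52 UMIs came from 4 of 38 cells, 1 of which held 25. In sets 2 and 3 endothelium-like cells held 11.4 (3.69 to 26.5) and 5.78 (1.88 to 13.5), from 5 UMIs each, and fibroblast-like cells differed from them by -0.32 (-1.77 to 1.44) and 2.16 (0.89 to 3.81) on the log2 scale. In the leukocyte-like background *Dkk2* had 0, 0 and 1 UMIs. Fibroblast-like cells exceeded it by at least 3.21 in set 1 and by 3.41 (0.89 to 8.72) in set 3, but in set 2 their 9.10 CPM lay under the 35.7 that 0 UMIs allow and could not be told apart from background.

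*Wif1* had a higher epithelium-like level than the other members in sets 2 and 3, whereas in set 1 it lay below *Sfrp1* and *Sfrp2*. Fibroblast-like cells held 37.7 (33.1 to 42.7), 45.1 (36.8 to 54.6) and 24.5 (19.7 to 30.1) CPM, and epithelium-like cells 3.48 (2.23 to 5.17), 25.3 (21.8 to 29.3) and 7.05 (5.80 to 8.49). The log2 difference was 3.44 (2.83 to 4.11) in set 1, 0.83 (0.47 to 1.19) in set 2 and 1.80 (1.38 to 2.21) in set 3. In set 2 the fibroblast-like level was therefore only 1.78-fold higher, and in set 3 it was 3.47-fold higher. The summed fibroblast markers were 14.6-fold and 26.0-fold higher in the same classes. The part of stromal transcripts in the epithelium-like *Wif1* counts was not tested. The ratio of set 1 fell under 4-fold with at least 500 genes per cell (1.50), without integration (1.58), with the unnamed cluster 7 counted as epithelium-like (1.66) and without the highest doublet scores (1.89), and that of set 3 was 1.05 and 1.37 under the first and the third of these.

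Within the epithelium *Wif1* was higher in basal-like than in luminal-like cells in each set. Basal-like cells held 12.6 (7.96 to 18.9), 37.3 (31.2 to 44.3) and 14.95 (11.96 to 18.47) CPM, and luminal-like cells 0 (up to 0.874 at the floor), 14.5 (10.8 to 19.2) and 2.28 (1.39 to 3.52). The log2 difference was at least 3.85 in set 1, 1.36 (0.88 to 1.86) in set 2 and 2.71 (1.997 to 3.49) in set 3. In set 1 the 23 basal-like UMIs came from 3 cells, 1 of which held 16. Basal-like cells also held more fibroblast marker transcripts than the epithelium as a whole, 165, 1828 and 1622 CPM. These are 111-fold, 10.5-fold and 12.5-fold below fibroblast-like cells. The basal-like *Wif1* level was 3.0-fold, 1.21-fold and 1.64-fold below that of fibroblast-like cells. The part of stromal transcripts in the basal-like *Wif1* counts was not tested.

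Against the leukocyte-like background the *Wif1* level of epithelium-like cells was not resolved in any set, and that of basal-like cells was not resolved in sets 2 and 3. In set 1 the 3.48 CPM of epithelium-like cells lay under the 6.26 that 0 UMIs allow. Leukocyte-like cells had 0, 2 and 3 UMIs, or 0 (up to 6.26), 23.8 (2.88 to 85.9) and 7.31 (1.51 to 21.4) CPM, and basal-like cells exceeded them by at least 1.01 in set 1, where their UMIs came from 3 cells, and by 0.65 (-1.23 to 3.71) in set 2 and 1.03 (-0.56 to 3.34) in set 3 on the log2 scale. The fibroblast-like level was above the same background by at least 2.59 in set 1 and by 1.74 (0.15 to 4.05) in set 3, but its difference of 0.92 (-0.97 to 3.99) in set 2 was not resolved either. At 900 UMIs per cell the shares of cells with a *Wif1* UMI were 2.64% (1.66% to 3.97%) and 0.625% (0.2999% to 1.15%) in basal-like cells of sets 2 and 3, and 1.45% (0.534% to 3.13%) and 0.337% (0.0696% to 0.983%) in luminal-like cells. These thinned intervals overlap, so the shares do not repeat the order of the levels beyond their error. Smooth muscle-like cells held 5.13 (0.622 to 18.54), 27.0 (20.2 to 35.4) and 14.7 (10.7 to 19.7), lower than fibroblast-like cells by 0.74 (0.24 to 1.25) and 0.74 (0.20 to 1.29) in sets 2 and 3. This order was not firm. With cells classed 1 by 1, without the highest doublet scores and without integration the difference was 0.15, 0.22 and 0.24 in set 2 and 0.07, 0.08 and 0.11 in set 3, and in set 3 it turned to -0.36 when cells needed at least 500 genes.

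*Frzb* was rare outside set 1, with only 10 and 2 UMIs in sets 2 and 3 against 138 there. Of the 138, 101 lay in fibroblast-like cells at 15.7 (12.8 to 19.0) CPM, in 14.5% of the cells, and none in the 142 epithelium-like cells, where 0 UMIs allow up to 0.434 CPM. Against that floor the fibroblast-like level was at least 36.0-fold higher, or 5.17 on the log2 scale. Over the alternatives this log2 ratio ran from 4.31 to 5.27. Against the 0 UMIs of leukocyte-like cells the fibroblast-like level was higher by at least 1.32 on the log2 scale. Smooth muscle-like cells of set 1 also held 0 UMIs, but 24 cells allow up to 7.70 CPM. In sets 2 and 3 fibroblast-like cells held 5 and 2 UMIs, or 2.17 (0.703 to 5.06) and 0.544 (0.0658 to 1.96) CPM, with intervals that lie below that of set 1.

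Counted over all gene rows with at least 20 UMIs in both classes together, 14.4%, 10.1% and 11.9% were at least 4-fold higher in fibroblast-like than in epithelium-like cells of sets 1, 2 and 3. All 5 antagonists passed that filter in set 1 and all 5 were at least 4-fold higher, with a median log2 ratio of 5.17 against 0.17 over all rows. That median is the ratio of *Frzb*, a lower bound from 0 epithelium-like UMIs. In sets 2 and 3, 4 antagonists passed the filter, *Frzb* being too rare, and 3 were at least 4-fold higher, *Wif1* being the exception. None was 4-fold lower. Against smooth muscle-like cells the shares of rows were 4.42%, 4.54% and 6.89%. The antagonists counted there were *Sfrp1* and *Wif1* of 5 in set 1, *Sfrp1* of 4 in set 2, and *Sfrp1* and *Dkk2* of 4 in set 3. The *Wif1* call of set 1 rests on 2 UMIs in 1 of 24 smooth muscle-like cells, and its log2 ratio fell to 0.32 with cells classed 1 by 1. A gene that reaches the filter through the class in which it is high was bound to differ, so these counts are descriptive, and the alternatives given above end some of the 4-fold calls.

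**Figure D2:**
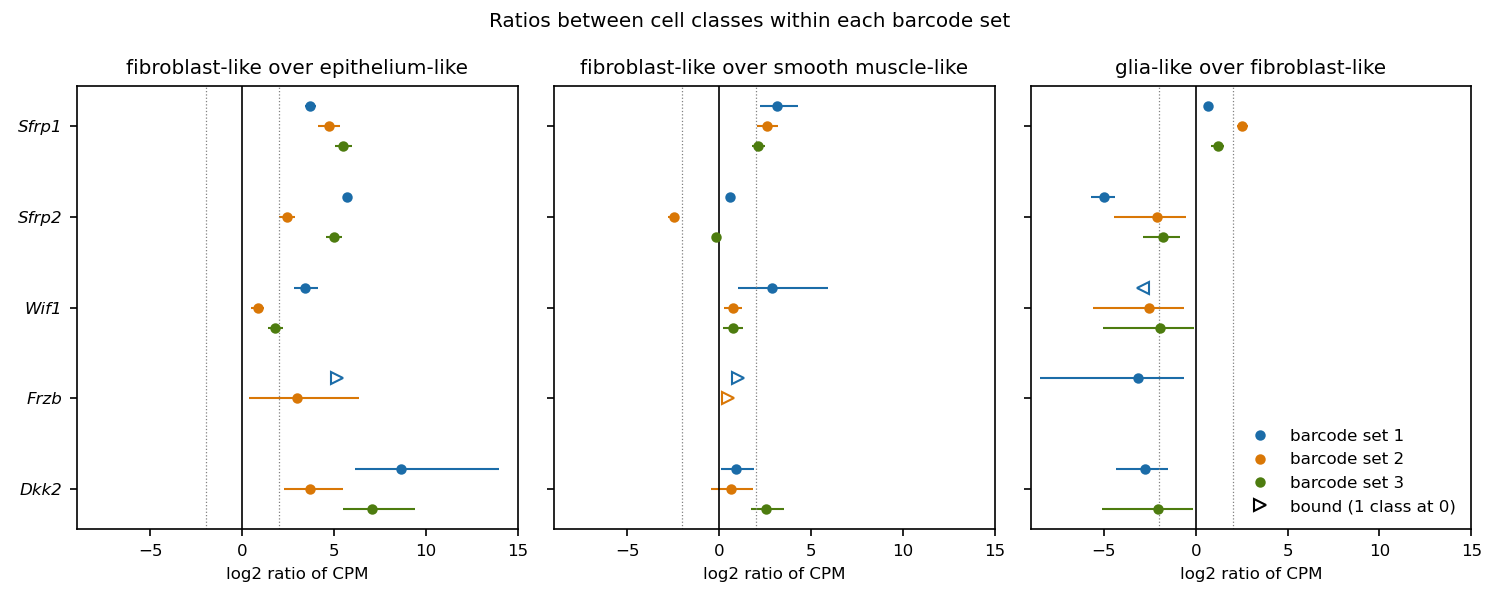
Log2 ratio of CPM (x axis) for each antagonist (y axis) between cell classes of the same barcode set, with exact 95% intervals as bars, open triangles for bounds where 1 class had 0 UMIs, and dotted lines at 4-fold. Every *Sfrp1* ratio shown over smooth muscle-like cells passed 4-fold, although alternatives took sets 2 and 3 under it, whereas those of *Sfrp2* ran from -2.46 to 0.58, and of the ratios shown for glia-like over fibroblast-like cells only those of *Sfrp1* were above 0.

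The share of each gene's UMIs by class weighs the levels by the number and depth of the cells of a class. Fibroblast-like cells held 69.9%, 40.1% and 57.8% of all *Sfrp1* UMIs in sets 1, 2 and 3, and glia-like cells, which were 2.74%, 3.50% and 2.88% of the cells, held 9.83%, 26.2% and 11.4%. For *Sfrp2* the fibroblast-like share was 72.0%, 9.15% and 37.1% and the smooth muscle-like share 2.90%, 42.0% and 33.8%. Of the *Wif1* UMIs, epithelium-like cells held 6.40%, 36.3% and 30.7%, more than the 20.8% and 24.9% of fibroblast-like cells in sets 2 and 3.

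**Figure D3:**
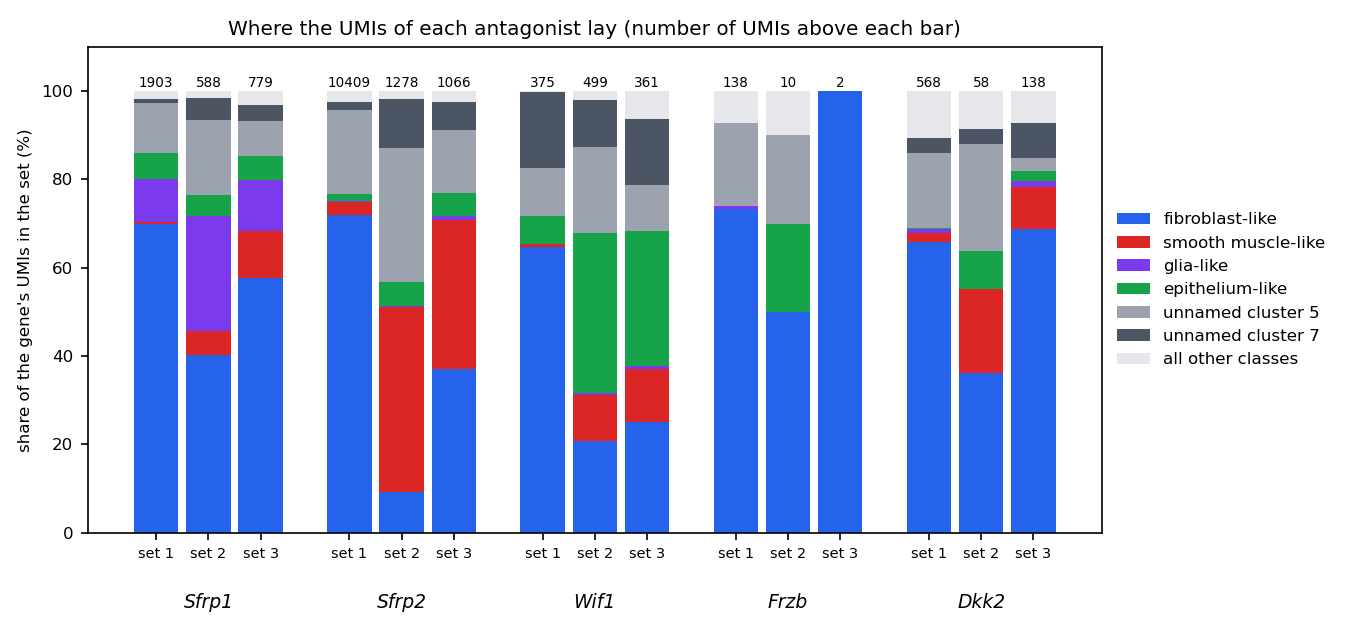
Share of each antagonist's UMIs (y axis, percent of the set's UMIs of that gene) by cell class for each barcode set (x axis), with the number of UMIs above each bar. *Sfrp2* lay mainly in fibroblast-like cells in set 1 (72.0%) and mainly in smooth muscle-like cells and the unnamed cluster 5 in set 2 (42.0% and 30.4%).

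The fibroblast-like cells formed 3 clusters, each found in every set. Cluster 2 (67, 701 and 1147 cells) was led by *Sult1e1*, *Tnfaip6* and *Ugdh*, cluster 3 (65, 664 and 845) by *Fgf21*, *Lamc3* and *Col15a1*, and cluster 6 (220, 204 and 582) by *Dpt*, *Lum* and *Inmt*. *Wif1* separated clusters 2 and 3. Cluster 3 held it at 100 (82.1 to 122), 100 (80.7 to 123) and 45.1 (34.3 to 58.2) CPM, and cluster 2 at 1.07 (0.0271 to 5.97), 0.973 (0.0246 to 5.42) and 9.44 (5.16 to 15.8). Cluster 3 was thus higher by 6.55 (4.04 to 11.9) in set 1, 6.68 (4.17 to 12.002) in set 2 and 2.26 (1.40 to 3.21) in set 3 on the log2 scale, each past 4-fold, where 2.89%, 0.785% and 1.34% of rows were so in that direction and 0.760%, 0.760% and 0.949% in the other. In sets 1 and 2 cluster 2 held 1 *Wif1* UMI each. Cluster 6 lay between them, at 30.8 (25.9 to 36.4), 28.5 (13.7 to 52.4) and 19.2 (11.2 to 30.7) CPM, and in set 1 its 138 UMIs outnumbered the 104 of cluster 3. It was below cluster 3 by log2 differences of -1.71 (-2.08 to -1.32), -1.81 (-2.92 to -0.87) and -1.23 (-2.11 to -0.44), and above cluster 2 by 4.85 (2.34 to 10.2) in set 1 and 4.87 (2.06 to 10.3) in set 2, whereas 1.02 (-0.09 to 2.15) in set 3 was not resolved.

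*Sfrp1* ran the other way. It stood at 292 (259 to 329), 144 (122 to 169) and 144 (126 to 165) CPM in cluster 2 and at 108 (89.1 to 130), 61.3 (46.4 to 79.4) and 32.1 (23.1 to 43.4) in cluster 3, a log2 ratio of cluster 3 over cluster 2 of -1.44 (-1.77 to -1.11), -1.23 (-1.70 to -0.78) and -2.17 (-2.68 to -1.69). Only the last passed 4-fold, where, as given above, 0.949% of rows did in that direction. Cluster 6 held *Sfrp1* at 211, 88.4 and 219 CPM, above cluster 3 by 0.96 (0.68 to 1.26) and 2.77 (2.28 to 3.29) in sets 1 and 3, whereas in set 2 the difference of 0.53 (-0.15 to 1.18) was not resolved. Against cluster 2 alone the glia-like *Sfrp1* level was higher by 2.04 (1.70 to 2.37) in set 2 and 0.95 (0.57 to 1.31) in set 3, but by 0.15 (-0.13 to 0.42) in set 1.

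*Sfrp2* and *Dkk2* were both lowest in cluster 2. *Sfrp2* stood at 526, 29.2 and 51.9 CPM there, at 915, 59.2 and 123 in cluster 3 and at 1352, 91.2 and 177 in cluster 6, so that clusters 3 and 6 lay above cluster 2 in each set by log2 ratios of 0.80 to 1.77. *Dkk2* stood at 16.1, 2.92 and 5.40 in cluster 2, at 92.7, 13.98 and 43.6 in cluster 3 and at 58.7, 14.3 and 33.8 in cluster 6. Cluster 3 exceeded cluster 2 by 2.53 (1.74 to 3.42), 2.26 (0.40 to 4.71) and 3.01 (1.94 to 4.29) on the log2 scale, and clusters 3 and 6 differed beyond counting error only in set 1 (cluster 6 over cluster 3, -0.66, -1.002 to -0.31). *Frzb* of set 1 was at 1.07, 15.5 and 18.7 CPM in clusters 2, 3 and 6, from 1, 16 and 84 UMIs.

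**Figure D4:**
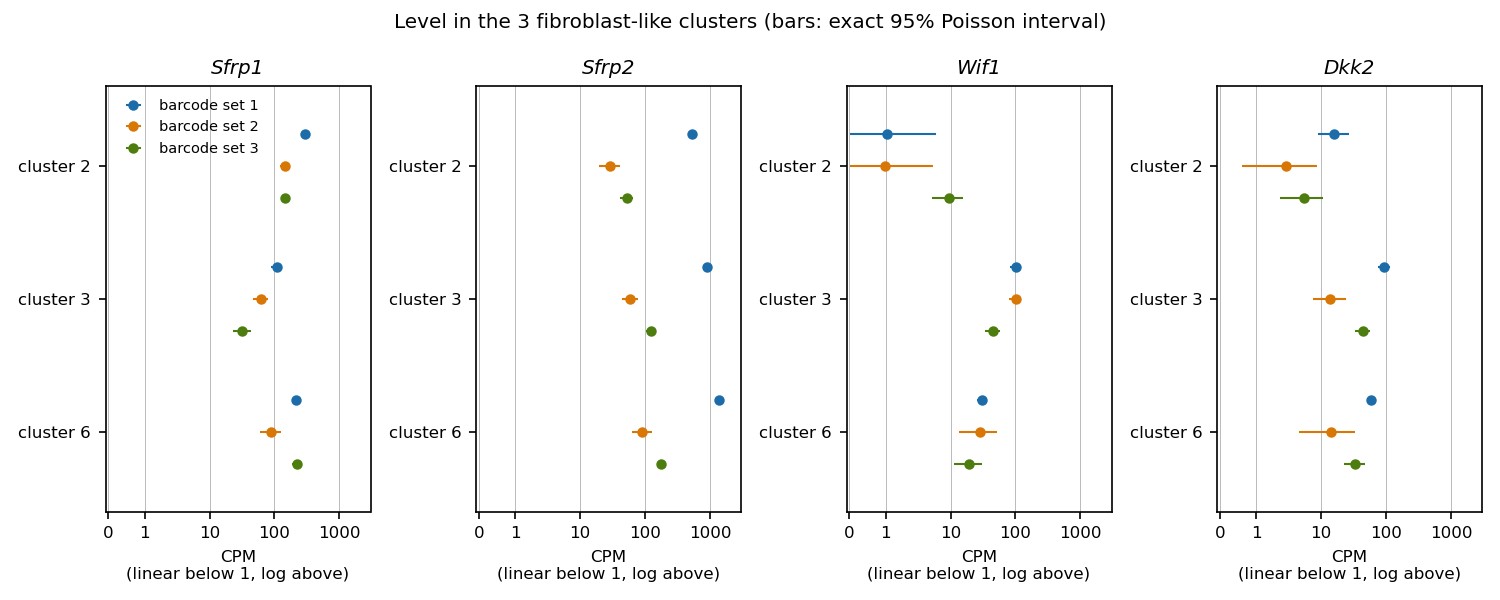
Levels of 4 antagonists in CPM (x axis, linear below 1 and logarithmic above) in the 3 fibroblast-like clusters (y axis), with 1 point per barcode set and exact 95% Poisson intervals. Cluster 2 had the highest *Sfrp1* level of sets 1 and 2 and the lowest *Wif1* level of every set, at 0.973 to 9.44.

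Among the unnamed clusters, cluster 7 had *Wif1* among its 10 leading genes. It held 137 (105 to 175), 33.3 (25.0 to 43.6) and 32.4 (24.3 to 42.3) CPM of *Wif1*. The 64 UMIs of set 1 came from 4 of 11 cells, with up to 25 in a cell. Its epithelial markers summed to 3215, 2634 and 2490 CPM, its smooth muscle markers to 1478, 7384 and 5244 and its fibroblast markers to 2650, 4390 and 3439, so the cluster carried transcripts of several classes. Cluster 5 held *Sfrp2* at 702 (672 to 733), 199 (179 to 219) and 158 (134 to 185).

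Few fibroblast-like cells held UMIs of several antagonists at equal depth. At 900 UMIs per cell, 235 of 350, 243 of 1370 and 429 of 2205 cells held a UMI of any of the 5 genes, and 48, 14 and 27 held UMIs of 2 or more. *Sfrp1* and *Sfrp2* were both found in 22, 2 and 11 cells, where the product of their shares gave 27.5, 6.31 and 15.9. *Sfrp2* and *Wif1* were both found in 7 cells of each set, where the product gave 5.94, 2.01 and 3.004. These are small counts, given as a description.

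In set 1 the reporter row split the fibroblast-like cells into 198 with and 154 without an EGFP UMI, at median depths of 16256 and 14210 UMIs. *Sfrp1* stood at 206 CPM in both. *Sfrp2* stood at 1120 with and 1239 without EGFP, a log2 ratio of -0.15 (-0.21 to -0.08), and *Dkk2* at 51.1 and 70.3, a ratio of -0.46 (-0.76 to -0.16). *Wif1* (35.1 and 42.3) and *Frzb* (14.035 and 18.545) did not differ beyond counting error. Within cluster 6 alone (131 and 89 cells) the log2 ratio was -0.31 (-0.38 to -0.23) for *Sfrp2*, -0.55 (-1.06 to -0.04) for *Wif1* and 0.12 (-0.08 to 0.33) for *Sfrp1*, and those of *Dkk2* at -0.36 (-0.73 to 0.01) and *Frzb* at -0.56 (-1.21 to 0.11) were not resolved, so which antagonists differed depended on the cells compared. A cell without an EGFP UMI may still carry the reporter, and cell-to-cell spread is not covered by these intervals.

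Across 18 units, each a named class in a set with at least 30 cells, the 3 genes whose log2 level ran most like each antagonist were ranked among 6408 rows. For *Sfrp1* they were *Lpar1* (Pearson r = 0.94), *Angptl2* (0.90) and *Itm2a* (0.88), for *Sfrp2* *Pcdh11x* (0.89), *Sulf1* (0.88) and *Dact3* (0.87), and for *Wif1* *Fmod* (0.85), *Dkk3* (0.83) and *Ptp4a1* (0.82). For *Frzb* they were *Fam155a* (0.91), *Nkain3* (0.91) and *Sema6c* (0.89), and for *Dkk2* *Dtl* (0.88), *Mest* (0.87) and *Aif1l* (0.85). Between antagonists r was highest for *Sfrp2* with *Dkk2* (0.72) and *Frzb* (0.70) and lowest for *Wif1* with *Frzb* and with *Dkk2* (both 0.16). Units of a set share a library and its depth, so the values are descriptive. *Frzb* itself, with 138, 10 and 2 UMIs in sets 1, 2 and 3, was under the 200 that ranked rows needed. Of the 138, 101 lay in fibroblast-like and 9 in neuron-like cells of set 1, so the values of *Frzb* rest on few units.

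Of the list of other secreted or surface antagonists, *Dkk3*, *Dkkl1*, *Draxin* and *Shisa3* had a row. Whether they inhibit Wnt signals in these cells was not tested. *Dkk3*, a divergent Dickkopf gene, stood at 29.1 (25.1 to 33.6), 19.9 (14.6 to 26.6) and 20.7 (16.3 to 25.9) CPM in fibroblast-like cells, at 82.1 (56.2 to 116), 16.6 (11.4 to 23.5) and 15.3 (11.2 to 20.4) in smooth muscle-like cells and at 3.19 to 5.73 in epithelium-like cells. *Dkkl1*, a Dickkopf-like gene, showed the opposite order, with 0 UMIs in the fibroblast-like cells of each set and 11.6 (6.97 to 18.1), 53.1 (30.3 to 86.2) and 81.0 (65.9 to 98.5) CPM in urothelium-like cells. *Draxin* and *Shisa3* had 7 and 14 UMIs in set 1 and 0 elsewhere.

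Genes of the ligands and their export differed between the classes in both directions in sets 1 and 2 and in 1 direction in set 3. Of 11 ligand and export genes with a row, 10, 9 and 8 reached 20 UMIs in sets 1, 2 and 3. Among them 3, 2 and 3 were at least 4-fold higher in fibroblast-like than in epithelium-like cells and 4, 3 and 0 were at least 4-fold lower, where 14.4%, 10.1% and 11.9% of all rows were higher and 8.65%, 7.53% and 9.58% lower. *Wnt2* stood at 29.6, 42.5 and 41.1 CPM in fibroblast-like and at 0.290, 1.26 and 0.254 in epithelium-like cells, log2 ratios of 6.68, 5.08 and 7.34. *Wnt11* stood at 37.2, 68.9 and 50.8 against 1.74, 5.03 and 3.81. No ligand was 4-fold lower in every set.

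Of 9 receptor genes, 7, 6 and 7 reached the filter, and 2, 1 and 2 were at least 4-fold higher in fibroblast-like cells and none lower, against the same shares of all rows, which also hold for the groups that follow. *Ror1*, a receptor of Wnt5a, was higher in every set, at 23.4, 12.1 and 12.8 CPM against 0.434, 1.68 and 3.17. Of 7 enhancers of the signal, 5 reached the filter in each set, with 2, 2 and 1 higher and 0, 1 and 3 lower, and *Rspo3*, an R-spondin that raises receptor levels, stood at 177, 175 and 128 against 1.45, 7.83 and 1.46. Of 6 feedback and target genes, 6, 5 and 6 reached it, with 5, 1 and 2 higher and 0, 1 and 1 lower. *Nkd1*, a feedback inhibitor inside the cell, was higher in every set, at 55.6, 17.8 and 32.6 against 4.78, 4.06 and 4.70.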

How the data were processed

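Each library was made with the 10x Genomics Chromium 3′ kit from cells dissociated with collagenase and TrypLE, with v3 chemistry per the labels and v2 per the study's methods. The authors aligned reads to mm10 with Cell Ranger 3.1.0, with the mGFP reporter added, and normalised in Seurat. The deposited values are natural log values, ln(1 + 10000 × share of the cell's UMIs), in 1 table of 9784 rows and 14573 cells. UMIs were recovered cell by cell: 100% of 11120281 values above 0 came out whole within 0.05. Of all UMIs, 49.4% to 52.7% per set lay in these rows. One partly empty row and 2 rows sharing a name were left out. A level is a class's UMIs per 1000000 UMIs of all its genes (CPM) with an exact Poisson 95% interval. A share has an exact binomial interval and a ratio an exact binomial split, a class at 0 UMIs being set to a floor of 3. No ratio was formed where both classes held 3 or fewer, or where the floor exceeded the other class.

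Cells needed 200 genes, which removed 97 cells of set 3. Sets were integrated in Seurat 5.3.0 (R 4.3.3) over 20 dimensions with cell cycle regressed, and clustered at resolution 0.5. A marker was carried where 10% of a cluster's cells held it at 2 times the median cluster. A name needed 3 carried markers, and a cluster stayed unnamed where more than 80% of another class's list was carried or where another class had more markers among its 10 leading genes. This naming rule was set after the clusters were seen, so classes may differ from the study's own. The doublet caller marked 3, 0 and 0 cells, has not worked here and removed none. The 3 most alike genes were ranked over rows with 200 UMIs on log2(CPM + 5). Named genes were the antagonists, *Dkk3*, *Dkkl1*, *Draxin*, the pathway genes past 4-fold one way in every set, marker genes, the most alike genes and EGFP, and *Shisa3* was added after its values were seen. Steps were tested on simulated data. The planned fits had assumed deposited counts. The members and lists were chosen with earlier results of these data known. RefSeq sequences came from tables of GRCm38.p6, which is mm10.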

Additional observations from a re-analysis of the deposited data

How the results depend on the processing

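Values below are log2 ratios of fibroblast-like over epithelium-like cells (E) or over smooth muscle-like cells (M), by antagonist and set. Of 240 values, for 28 ratios under up to 9 alternatives, 175 stayed within the counting interval of the reported ratio, 63 moved outside it and 2 changed sign. The cause was not tested. Ratios of M in set 1 rest on 24 smooth muscle-like cells. Resolution 1.0 moved M of *Wif1* in set 2 to 1.52. Without integration E of set 1 was 3.25 (*Sfrp1*), 4.59 (*Sfrp2*), 1.58 (*Wif1*) and 5.70 (*Dkk2*), and M was 2.29 (*Sfrp2*, set 1), 1.76 (*Sfrp1*, set 2), 0.24 (*Wif1*, set 2) and 0.11 (*Wif1*, set 3). With cells of at least 500 genes, E was 4.49 (*Sfrp2*), 1.50 (*Wif1*) and 4.28 (*Dkk2*) in set 1, 4.01 (*Sfrp1*) and 1.64 (*Sfrp2*) in set 2, and 4.95 (*Sfrp1*), 3.50 (*Sfrp2*), 1.05 (*Wif1*) and 4.80 (*Dkk2*) in set 3. There M was 0.39 (*Sfrp2*, set 1), 1.66 (*Sfrp1*, set 2), -1.62 (*Sfrp2*, set 2) and -0.43 (*Sfrp2*, set 3), and M of *Wif1* in set 3 changed sign to -0.36. Without the highest doublet scores, E was 6.06 (*Sfrp2*) and 1.89 (*Wif1*) in set 1 and 1.49 (*Sfrp2*) in set 2, and M was 0.77 (*Sfrp2*, set 1), 1.85 (*Sfrp1*, set 2), -2.0 (*Sfrp2*, set 2), 0.22 (*Wif1*, set 2) and 0.08 (*Wif1*, set 3). With cells thinned to 900 UMIs, E was 4.54 (*Sfrp1*), 5.30 (*Sfrp2*), 2.58 (*Wif1*) and 2.09 (*Dkk2*) in set 1, 4.11 (*Sfrp1*) and 1.91 (*Dkk2*) in set 2 and 4.26 (*Dkk2*) in set 3, and M of set 1 was 0.35 (*Sfrp1*) and 0.78 (*Sfrp2*). The 3 thinned *Dkk2* values and that 0.35 are bounds, as 1 class then held 0 UMIs. With cells classed 1 by 1, E of set 1 was 4.86 (*Sfrp2*), 2.05 (*Wif1*) and 5.76 (*Dkk2*), and M was 0.32 (*Wif1*, set 1), 0.08 (*Dkk2*, set 1), -1.51 (*Sfrp2*, set 2), 0.15 (*Wif1*, set 2) and 0.07 (*Wif1*, set 3). The other alternatives were added after the data were seen. With cluster 5 counted as fibroblast-like, E was 3.38 (*Sfrp1*, set 1) and 3.64 (*Sfrp2*, set 2) and M of *Sfrp2* was 0.40 in set 1 and -1.24 in set 2. With cluster 7 counted as epithelium-like, E was 4.64 (*Sfrp2*), 1.66 (*Wif1*) and 4.42 (*Dkk2*) in set 1, 3.95 (*Sfrp1*) and 1.07 (*Sfrp2*) in set 2, and 4.93 (*Sfrp1*), 3.94 (*Sfrp2*), 1.37 (*Wif1*) and 5.01 (*Dkk2*) in set 3. Without cluster 6, E of *Sfrp2* in set 1 was 5.05, M of *Sfrp2* in set 1 changed sign to -0.08, and M in set 3 was 1.73 (*Sfrp1*) and -0.49 (*Sfrp2*). Where an alternative left both classes at or under the floor, no value was formed. No paired analysis was possible because each age had 1 library. The number of UMIs limits *Dkk2* in epithelium and every value set against the 26 to 177 leukocyte-like cells.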
